A study of Mus musculus with 3 samples.

Results

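The imprinted genes described here are *Cdkn1c*, *Meg3*, *Rian*, *Nnat*, *Peg3*, *Ndn*, *Snrpn*, *Plagl1*, *Igf2* and *Dlk1*. These 10 genes were taken as a list of known imprinted genes, in part because *Cdkn1c* differed between agonist doses in the neurogenic progenitors of retinal explants, so that difference and the differences between cell types are given below as descriptions with no test. A row was present for 9 of the 10 genes in each of 3 single-cell RNA tables, which held 18823 genes in explants, 17851 at P0 and 17849 at P14 (19946 in any table). *Rian* was not analysed here.

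Imprinted genes are transcribed mainly from the copy inherited from the mother or mainly from the copy inherited from the father, because DNA methylation laid down in the germ line marks the parental copies differently. Many of them lie in clusters under a shared control region and act on growth, on exit from the cell cycle or on the maturation of neurons. In the developing retina *Cdkn1c* is known for its expression in progenitors that leave the cycle and in a subset of amacrine cells. The parental origin of the transcripts was not measured.

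The study used MULTI-seq, in which lipid-anchored barcodes mark the cells of each sample before they are pooled for single-cell RNA-seq. Explants were E14 CD1 wild-type retinas cultured for 6 days with the Sstr2 agonist L-054,264 at 0, 5, 50 or 500 nM, with 2 samples at each dose and 8 in all. Retinas of littermates at P0 and at P14 were labelled Sstr2 +/+ (wild type, 1 sample), +/- (heterozygous, 2 samples) and -/- (knockout, 2 samples), and all of them came from C57BL/6NCrl mice with a targeted Sstr2 deletion that were outbred to CD1 and intercrossed. How many retinas a sample pooled was not given in the sources used here, so the samples are the units of the tests below. The edgeR fits share their estimate of spread over genes. Their p-values therefore need not reflect the spread of a single gene between these samples. A fit that leaves out 1 sample keeps a single sample in that group and takes its spread from the other groups. Calls from such fits say nothing of the spread within that group.

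The tables held 5607 cells in explants, 5706 at P0 and 3298 at P14, with 1281682 to 4237324, 8822880 to 10793649 and 1266730 to 5886669 UMIs per sample. Between 4 and 9 cell barcodes were shared by any 2 libraries. The authors named clusters by marker genes of these same cells, so markers that are high in a type are no independent check of its label. In each library that had the type, 8 of 9 neurogenic and 6 of 7 amacrine markers were highest in the type of that name. Every marker listed for the other types was highest in the type of that name too. The study states that its explants lack viable RGCs, yet 200 explant cells carry that label. Their RGC markers summed to 3306 to 4717 CPM (UMIs per 1000000 UMIs), against 9900 to 11693 in P0 RGCs. Amacrine markers summed to 968 to 1481 CPM in them, against 567 to 611 in P0 RGCs. Explant RGCs below are cells with that label. The transcript of the targeted gene was not lower in the P0 retinas labelled knockout. The study reported higher *Sstr2* mRNA in neurogenic progenitors of P0 mutants than in controls. It proposed that Sstr2 signaling may lower *Sstr2* transcription. The values that follow are over all cells of a retina, not neurogenic progenitors alone, so they do not repeat that comparison. *Sstr2* stood at 14.1 UMIs per 1000000 UMIs in the P0 retina labelled wild type. It stood at 22.3 and 33.5 in those labelled heterozygous and at 41.0 and 43.3 in those labelled knockout. The deleted part of *Sstr2* was not given in the sources used here, and 3' tags outside it would check nothing, so every genotype below is a label. At P14 each retina held 13 *Sstr2* UMIs or fewer.

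Some samples stood apart in the share of cells with an *Xist* UMI. This share was 98.3 to 99.3% in explant 5 nM 1 and both 500 nM explants and 57.7 to 62.4% in the other 5, so that both 0 nM explants held cells of both sexes and both 500 nM explants were nearly all female. At P0 heterozygous 1 and knockout 2 were female. At P14 heterozygous 2 held *Xist* UMIs in 72.7% of its cells and Y-linked UMIs in 10.5%, while the other 4 retinas had *Xist* in 4.29% or less. Values without that retina are given beside the P14 results.

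In the mouse annotation (GENCODE M21 on GRCm38) *Cdkn1c* lies on chromosome 7 at chr7:143458339-143461050 on the minus strand, 792 kb from *Igf2* (chr7:142650766-142666816, minus strand). *Ndn* (chr7:62346569-62350262, plus strand) and *Snrpn* (chr7:59982495-60140219, minus strand) are neighbours 2206 kb apart in another cluster of chromosome 7, and *Peg3* lies at chr7:6703892-6730431 on the minus strand. *Dlk1* (chr12:109452823-109463336), *Meg3* (chr12:109541001-109571726) and *Rian* (chr12:109603940-109661716) follow each other on the plus strand of chromosome 12, with gaps of 77.7 and 32.2 kb. *Plagl1* is at chr10:13060504-13131694 and *Nnat* at chr2:157560078-157562522, both on the plus strand, and *Nnat* overlaps *Blcap* on the opposite strand. *Snrpn* overlaps *Snurf* on the same strand, so its counts are uncertain where reads could be assigned to either.

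The promoter table of RefSeq (GRCm38.p6) held 9 of the 10 genes. The 250 bases before a RefSeq start are shown for 4 members, named with the type in which they were highest at P0: *Nnat* in amacrine cells, *Ndn* and *Meg3* in RGCs, and *Plagl1* in primary progenitors. For *Ndn* and *Plagl1* this start lies inside the GENCODE span given above, downstream of the outermost start, so the stretch belongs to that RefSeq start alone. Capitals mark each CG dinucleotide, the letters at which imprinted marks are set. CG reads the same on both strands and was the only motif searched, and across 32851 promoters of this length the median number was 6.
Nnat, chr2:157559828-157560077, plus strand: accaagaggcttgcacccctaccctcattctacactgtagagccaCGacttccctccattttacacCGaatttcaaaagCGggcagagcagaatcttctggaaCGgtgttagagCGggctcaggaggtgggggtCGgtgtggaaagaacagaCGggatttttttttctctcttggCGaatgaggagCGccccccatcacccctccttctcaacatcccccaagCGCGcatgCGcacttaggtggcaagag
Ndn, chr7:62348027-62348276, plus strand: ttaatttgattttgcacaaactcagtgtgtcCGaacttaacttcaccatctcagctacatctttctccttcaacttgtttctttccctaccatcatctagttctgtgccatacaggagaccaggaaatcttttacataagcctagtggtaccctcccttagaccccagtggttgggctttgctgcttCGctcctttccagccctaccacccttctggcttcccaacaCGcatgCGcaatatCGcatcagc
Plagl1, chr10:13090582-13090831, plus strand: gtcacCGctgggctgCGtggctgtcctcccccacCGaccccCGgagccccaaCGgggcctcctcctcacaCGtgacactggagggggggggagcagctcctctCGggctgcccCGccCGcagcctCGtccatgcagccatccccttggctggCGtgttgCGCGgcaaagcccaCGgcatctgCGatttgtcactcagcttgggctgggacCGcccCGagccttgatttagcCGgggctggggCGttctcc
Meg3, chr12:109540746-109540995, plus strand: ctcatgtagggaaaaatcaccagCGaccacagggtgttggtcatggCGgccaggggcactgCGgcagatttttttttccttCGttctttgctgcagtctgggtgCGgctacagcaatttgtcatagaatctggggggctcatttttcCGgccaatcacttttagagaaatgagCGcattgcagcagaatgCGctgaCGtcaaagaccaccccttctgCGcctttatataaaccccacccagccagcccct
The *Plagl1* stretch held 19 CG dinucleotides, a number reached by 19.7% of all promoters. *Nnat* held 12 (33.5% of promoters had as many), this start of *Meg3* held 10 (37.8%) and *Ndn* held 5 (55.6%). No methylation was measured in these samples, and the counts describe the reference sequence.

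*Cdkn1c* encodes a cyclin-dependent kinase inhibitor that holds cells out of the cycle and is expressed from the maternal copy. Its level was computed as UMIs per 1000000 UMIs (CPM) of a cell type in a sample. In explants *Cdkn1c* was highest in amacrine cells, with a lowest, median and highest of 80.9, 171 and 231 CPM over 8 explants. Photoreceptor precursors followed at 75.6, 102 and 118 CPM, a range that overlapped that of amacrine cells. Primary progenitors lay lower, at 14.0, 25.5 and 36.8 CPM, and did not overlap photoreceptor precursors. Neurogenic progenitors ran from 5.23 to 69.3 CPM with a median of 15.8, the widest relative spread among the larger types, and RGCs of 7 explants from 0 to 59.2 CPM on 16 UMIs. The lead of amacrine cells in explants rested on few cells. Without the highest cell of each explant they held 59.4 to 150 CPM (median 98.6), and after thinning each cell to 2000 UMIs a *Cdkn1c* UMI was found in 9.79% of amacrine cells and 14.6% of photoreceptor precursors (14.5 and 17.7% before thinning, with 14 and 174 shallower cells left out).

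At P0 the types lay closer together. Amacrine cells held 72.3 to 276 CPM (median 134, n = 5), RGCs 53.5 to 130 (median 93.0) and photoreceptor precursors 73.2 to 127 (median 88.2). Primary progenitors stood at 42.7 to 75.4 CPM and neurogenic progenitors at 32.6 to 68.7. The range of each type overlapped that of the next in the order. Here too amacrine cells did not lead in the share of cells with a UMI after thinning, with 10.3%. Photoreceptor precursors had 14.1%, and the 85 RGCs were highest at 20% (8.33 to 46.7% over 5 retinas). At P14 Müller glia, the glial cells that derive from late progenitors, stood alone at the top with 157 to 224 CPM (190 ± 25.6, SD, n = 5). Rods followed at 24.1 to 82.7, cones at 0 to 44.7 and bipolar cells at 3.36 to 16.2 CPM. In P14 amacrine cells, present with at least 10 cells in 3 retinas, *Cdkn1c* was listed at 0 in wild type and knockout 1 and at 150 CPM in knockout 2, where a single cell held 33 of the 36 UMIs.

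**Figure D1:**
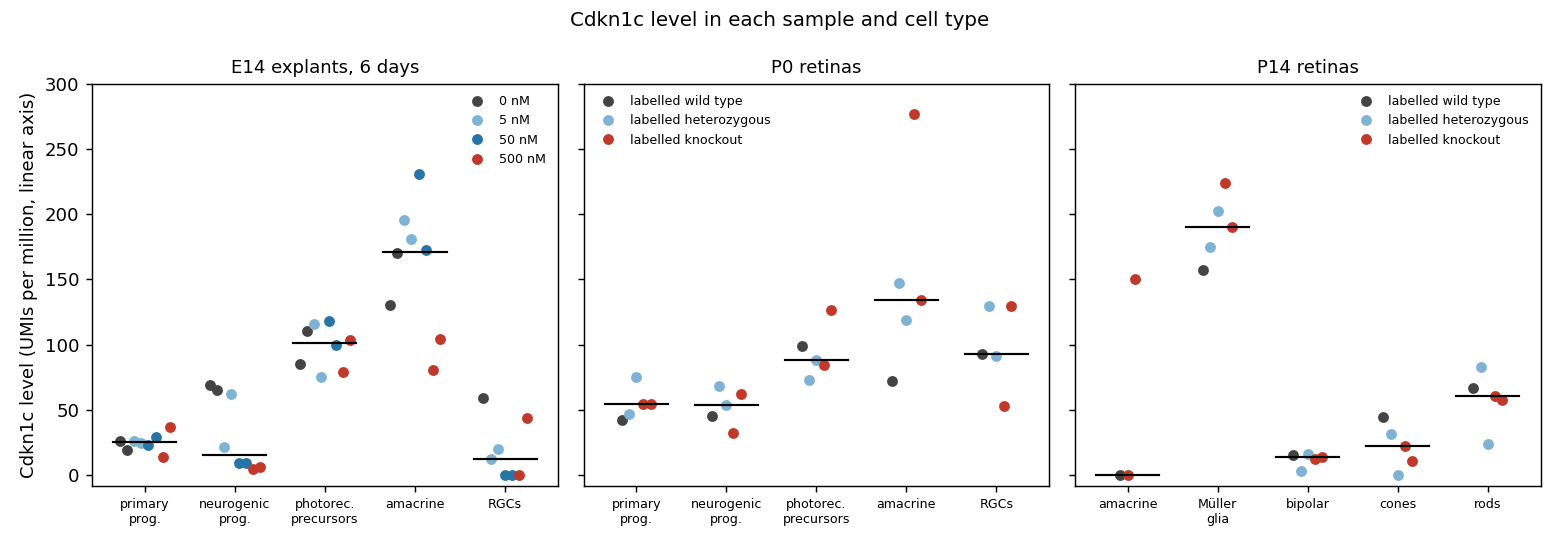
*Cdkn1c* level (CPM, UMIs per 1000000 UMIs of that cell type in a sample, linear axis) in each cell type of explants, P0 and P14 retinas, with 1 point per sample coloured by dose or labelled genotype and a bar at the median. The median is highest in amacrine cells in explants and at P0, and Müller glia, at 157 to 224 CPM, lead at P14.

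Within amacrine cells of explants and P0 retinas, a few cells held most *Cdkn1c* transcripts. In some other types the transcripts were spread over more cells. A UMI was found in 295 of 1662 explant photoreceptor precursors, 826 of 2797 P0 primary progenitors and 403 of 2271 P14 rods. The most in a single cell of these types was 7, 15 and 6 UMIs. In explant amacrine cells 44 of 1372 cells had 5 or more *Cdkn1c* UMIs, a limit chosen after the values were seen, and these held 72.5% of the type's 946 UMIs. At P0, 55 of 1013 amacrine cells held 78.0% of 1205 UMIs, with up to 269 in a single cell. These high cells were sequenced to a like depth as the rest (median 4905 against 4742 UMIs in explants and 8668 against 7265 at P0). They carried amacrine markers (2200 against 3017 CPM summed in explants and 2533 against 3169 at P0). Markers of other types differed as well. Neurogenic markers summed to 1211 CPM in the high cells against 674 in the rest in explants, primary progenitor markers to 755 against 353 at P0, and RGC markers were lower in the high cells of both (110 against 214 and 116 against 269). The part of these in the result was not tested. *Cdkn1c* was broader in P14 Müller glia, where 65.4% of 266 cells held a UMI and the 47 cells with 5 or more held 61.7%. By comparison 6.06% of P14 bipolar cells held a *Cdkn1c* UMI, at median depths of 15108 UMIs in Müller glia and 3940 in bipolar cells. After thinning each cell to 2000 UMIs, with 18 Müller and 57 bipolar cells left out as shallower, the shares were 23.0% and 1.54%.

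The genes whose level followed *Cdkn1c* most closely across the sums of cell types and samples were *Ypel2* (Pearson's r 0.864), *Enc1* (0.832) and *Setd1b* (0.807) over 39 sums in explants. At P0 they were *Saysd1* (0.827), *Ankrd37* (0.821) and *Thsd7a* (0.814) over 25 sums. At P14 *Hey2*, a transcription factor of the Notch pathway that is known in Müller glia, led with r 0.901 over 23 sums, followed by *Cmtm4* and *Acaa1a*, both at 0.843. No gene stood among the leading 3 in more than 1 library. The sums of a library share sequencing depth and cell type makeup, so these values are descriptions.

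*Plagl1*, a paternally expressed zinc finger transcription factor that restrains growth, was highest in primary progenitors in explants and at P0. In primary progenitors it stood at 231 to 288 CPM in explants and 192 to 251 CPM at P0. Explant neurogenic progenitors held 5.51 to 63.9 CPM, a range that overlapped RGCs (15.3 to 85.7), amacrine cells (30.8 to 66.4) and photoreceptor precursors (12.5 to 59.6). P0 neurogenic progenitors held 73.3 to 94.8, photoreceptor precursors 59.9 to 98.0, amacrine cells 33.2 to 53.0 and RGCs 0 to 13.5 CPM, so primary progenitors did not overlap any other type. At P14 Müller glia were highest at 33.7 to 80.2 CPM, above bipolar cells (0 to 17.8) and rods (3.46 to 8.43). *Peg3*, a paternally expressed zinc finger gene, varied less: explant types ran from 0 to 114 CPM and P0 types from 37.1 to 103, with primary progenitors highest at P0 (77.5 to 103). P14 amacrine cells of 3 retinas led *Peg3* with 167 to 248 CPM.

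*Meg3*, a maternally expressed long non-coding RNA, had its lowest median in primary progenitors in explants and at P0, and in rods at P14. Cells labelled RGCs were highest in explants and at P0, at 1572 to 5068 CPM in 7 explants (median 4171) and at 4294 to 6320 CPM at P0 (5347 ± 739, SD, n = 5). P0 photoreceptor precursors held 1676 to 2138, neurogenic progenitors 796 to 1019 and amacrine cells 536 to 892 CPM. Primary progenitors stood at 27.1 to 73.5 CPM at P0 and at 33.9 to 113 in explants, below the ranges of the other P0 types. At P14 amacrine cells of 3 retinas held 5899 to 11281 CPM and bipolar cells 2704 to 4618. Cones spread from 495 to 3126 CPM, while Müller glia held 169 to 429 and rods 109 to 138.

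*Nnat*, a paternally expressed gene for a small membrane protein of neurons, was highest in amacrine cells at P0, at 3306 to 3862 CPM, ahead of RGCs at 2029 to 2371. The other P0 types held 276 to 767 CPM. In explants amacrine cells (3360 to 4513) and RGCs (2020 to 7029) overlapped, and primary progenitors (597 to 981) lay above neurogenic progenitors (404 to 569). At P14 *Nnat* stood at 38.8 to 560 CPM in amacrine cells of 3 retinas, where a single cell held 171 of 229 UMIs. Bipolar cells held 94.5 to 264 CPM and Müller glia 68.4 to 115, above both photoreceptor types, with rods at 18.7 to 25.6 and cones at 0 to 12.8.

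*Ndn*, a paternally expressed MAGE family gene of neurons that have left the cycle, and *Snrpn*, which encodes a spliceosome protein of neurons, were both highest in RGCs and next in amacrine cells at P0, while the order of the other 3 types differed between them. *Ndn* held 462 to 650 CPM in RGCs, 232 to 265 in amacrine cells and 95.9 to 125 in the other 3 types. *Snrpn* held 624 to 708 CPM in RGCs, 227 to 288 in amacrine cells, 68.8 to 88.2 in photoreceptor precursors and 35.1 to 66.6 in progenitors of both kinds. Across the cell type sums the levels of this neighbouring pair had a Pearson's r of 0.946 at P0 (25 sums), 0.518 in explants (39 sums) and 0.745 at P14 (23 sums). *Snrpn* and *Nnat*, which lie on different chromosomes, reached 0.882 at P0 and 0.892 in explants. At P14 *Snrpn* was 256 to 941 CPM in amacrine cells of 3 retinas, where 10 of 68 cells held 87.0% of its UMIs, 186 to 245 in bipolar cells and 20.7 to 32.5 in rods, and *Ndn* was lowest in rods at 30.1 to 49.7.

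*Igf2*, a paternally expressed growth factor, and *Dlk1*, a paternally expressed transmembrane protein of the Notch ligand family, were barely detected. *Igf2* had 3, 21 and 27 UMIs in explants, at P0 and at P14, of which 17 lay in P0 primary progenitors and 17 in P14 Müller glia. *Dlk1* had 5, 24 and 1 UMIs, of which 18 lay in P0 photoreceptor precursors. Neither passed the filter on low counts in any comparison below, so no difference in them was detectable at this depth.

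**Figure D2:**
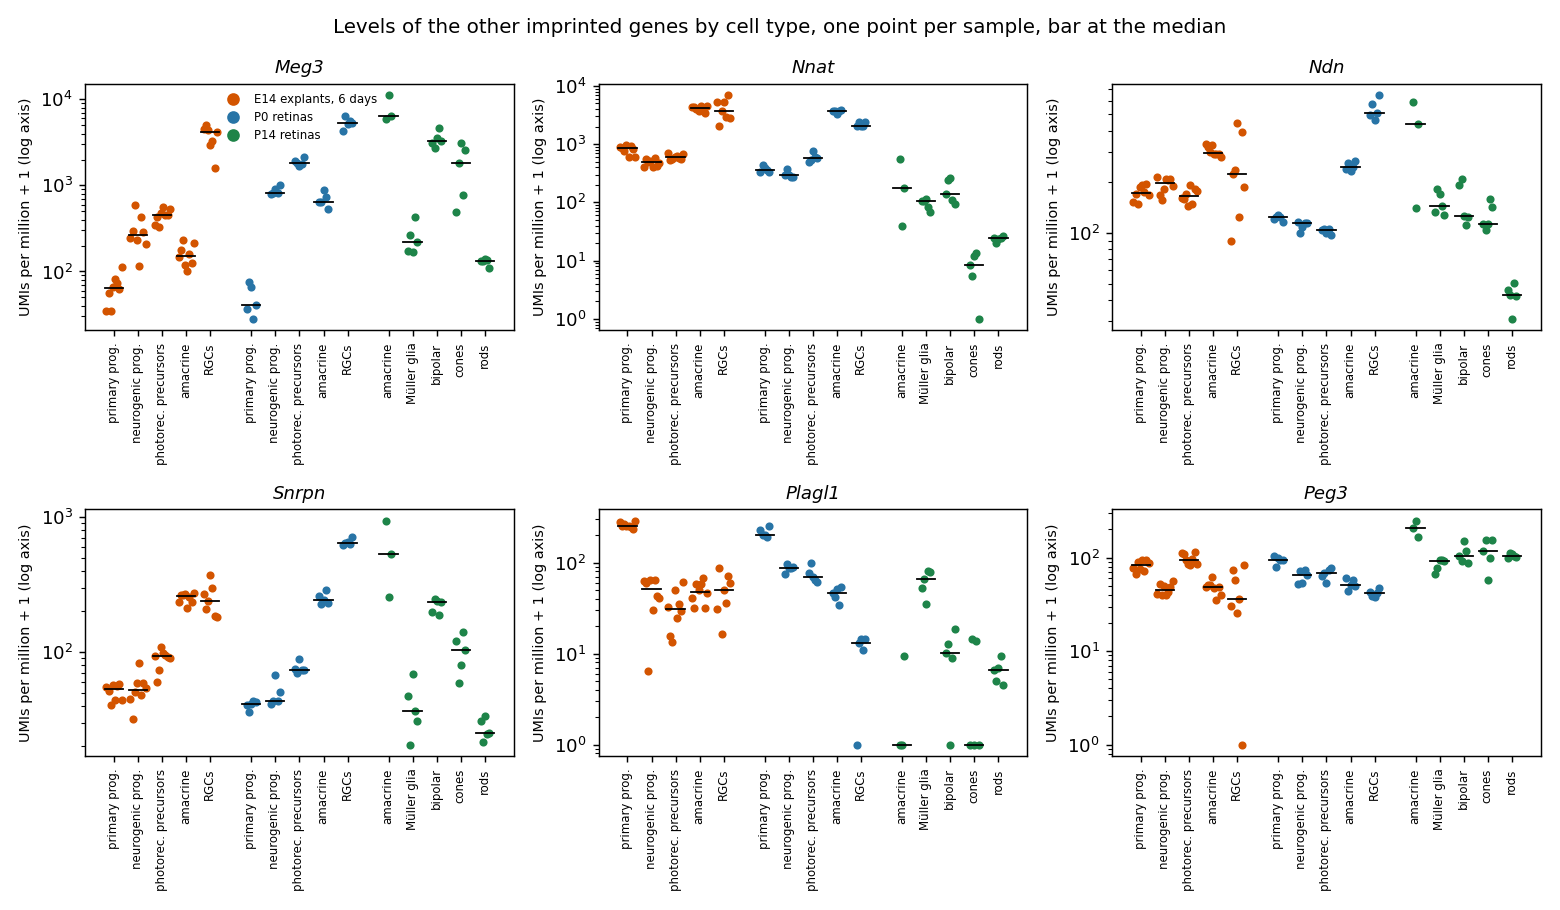
Level of *Meg3*, *Nnat*, *Ndn*, *Snrpn*, *Plagl1* and *Peg3* (CPM + 1, log axis) in each cell type of explants, P0 and P14 retinas, with 1 point per sample and a bar at the median. At P0 *Meg3*, *Ndn* and *Snrpn* lead in RGCs, *Nnat* in amacrine cells and *Plagl1* in primary progenitors.

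The explant neurogenic progenitors are the cells whose *Cdkn1c* values entered the choice of genes. *Cdkn1c* stood at 69.3 and 65.4 CPM in the 0 nM explants, 22.0 and 62.4 at 5 nM, 9.62 and 9.37 at 50 nM and 5.23 and 6.64 at 500 nM. Both explants at 50 nM and both at 500 nM lay below all of those at 0 and 5 nM. The values rested on 35, 19, 4, 40, 2, 4, 2 and 3 UMIs in that order, and the floor of 3 UMIs is reached or undercut in 3 of these 8 explants. The share of neurogenic progenitors with a *Cdkn1c* UMI was 11 of 111 and 10 of 65 cells at 0 nM, 3 of 38 and 10 of 137 at 5 nM, 2 of 46 and 4 of 95 at 50 nM, and 1 of 85 and 3 of 105 at 500 nM. Across all doses the share was 6.45%, against 8.63% in primary progenitors, at median depths of 4527 and 4548 UMIs per cell.

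Of the 109 *Cdkn1c* UMIs in 682 neurogenic progenitors, 5 cells with 5 or more UMIs held 55.0%, and the highest cell had 27. Without the highest cell of each explant the levels were 40.0 and 45.3 CPM at 0 nM, 11.3 and 20.4 at 5 nM, 4.90 and 7.11 at 50 nM and 0 and 4.47 at 500 nM. The mean difference between 500 and 0 nM was then -40.4 CPM in place of -61.4, a setting added after the data were seen. In cells with an *Xist* UMI alone the levels were 53.5 and 79.5 CPM at 0 nM, 22.0 and 81.3 at 5 nM, 0 and 10.6 at 50 nM and 5.23 and 6.64 at 500 nM. Under all 3 readings the means at 50 and 500 nM lay below those at 0 and 5 nM. The readings share the cells that entered the choice of genes, so this is no independent support. At 500 nM all 85 and 105 cells held an *Xist* UMI, so the *Xist* reading is the same as that of all cells there. In the same cells 0.0988% of 6072 genes passed the test between 500 and 0 nM, and nothing is read from it for *Cdkn1c*. The other 6 members in these cells had fitted log2 differences of -0.57 for *Plagl1*, -0.10 for *Meg3*, -0.05 for *Nnat*, 0.02 for *Ndn*, 0.21 for *Peg3* and 0.49 for *Snrpn*, with SE of 0.15 to 0.38.

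**Figure D3:**
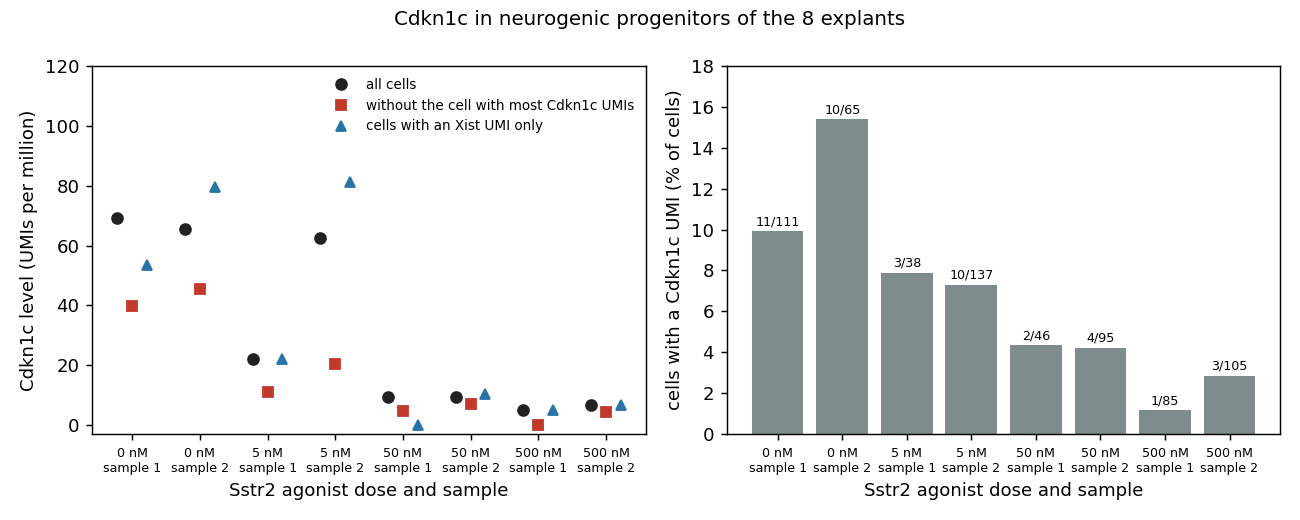
Left, *Cdkn1c* level (CPM) in neurogenic progenitors of each of the 8 explants, for all cells (circles), without the cell with most *Cdkn1c* UMIs (squares) and for cells with an *Xist* UMI (triangles), and right, the percentage of these cells with a *Cdkn1c* UMI, with the cell numbers over the bars. In all cells the 2 explants at 0 nM sit at 65.4 and 69.3 CPM and the 2 at 500 nM at 5.23 and 6.64.

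The other explant cell types were tested between 500 and 0 nM with edgeR's quasi-likelihood test on counts summed per explant and cell type, with p-values adjusted over all genes by Benjamini-Hochberg. In primary progenitors 0 of 7 members passed, where 0.317% of 8514 genes did, and 2 members had an unadjusted p under 0.05. DESeq2 called 0 and gave 0 such members. *Cdkn1c* differed by a log2 fold change of 0.17 ± 0.349 (SE, adjusted p = 0.933), and by -0.76 without explant 500 nM 2. *Meg3* stood at 33.9 and 55.5 CPM at 0 nM, 34.0 and 65.2 at 5 nM, 81.2 and 72.5 at 50 nM and 61.5 and 113 at 500 nM, and both 500 nM explants lay above both at 0 nM. In *Xist*-positive cells, a reading added after the data were seen, the *Meg3* values were 31.9 and 71.0 CPM at 0 nM. They were 60.9 and 114 at 500 nM, which overlap those at 0 nM. Over all cells the *Meg3* log2 fold change was 1.03 ± 0.248 (SE, unadjusted p = 1.7e-04, adjusted p = 0.0501), just outside the threshold.

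The size of that difference moved with single explants. Without 500 nM 2 the *Meg3* log2 fold change was 0.51, without 0 nM 1 it was 0.62, and without 500 nM 1 it was 1.34. Primary progenitors of 500 nM 2 held 2730 CPM of 4 summed lens markers, where the other 7 explants held 26.2 to 34.4, and 347 CPM of photoreceptor precursor markers, where the others held 120 to 208. The 42 of 1691 primary progenitors with 3 or more *Meg3* UMIs carried 12409 CPM of lens markers against 254 in the rest, and their part in the result was not tested. *Nnat* had a log2 fold change of -0.35 ± 0.149 (SE, unadjusted p = 0.0225, adjusted p = 0.493) in the same cells, with 901 and 860 CPM at 0 nM and 835 and 597 at 500 nM. Its log2 fold change was -0.64 without 500 nM 1 and -0.11 without 500 nM 2.

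In explant amacrine cells *Cdkn1c* was lower at the highest dose than at any other. It stood at 131 and 170 CPM at 0 nM, 196 and 181 at 5 nM, 231 and 173 at 50 nM and 80.9 and 105 at 500 nM, and both 500 nM explants lay below the other 6. The log2 fold change between 500 and 0 nM was -0.62 ± 0.165 (SE, unadjusted p = 4.9e-04), and the adjusted p of 0.147 did not pass. Here 0 of 7 members passed, where 0.269% of 8188 genes did, 1 member had an unadjusted p under 0.05, and DESeq2 called 0. The difference was smaller in other sets of cells. Without the highest cell of each explant the values were 109 and 67.7 CPM at 0 nM and 59.4 and 88.5 at 500 nM, which overlap, and in *Xist*-positive cells they were 144 and 79.4 against 81.2 and 106, which overlap too. The mean difference of -57.6 CPM became -14.2 and -17.8 in these readings, which were added after the data were seen.

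In explant photoreceptor precursors 0 of 7 members passed, where 0.0941% of 7440 genes did, with 1 member at an unadjusted p under 0.05 and 0 called by DESeq2. *Cdkn1c* did not differ beyond the spread, at 85.4 and 111 CPM at 0 nM and 79.3 and 103 at 500 nM (log2 fold change -0.04 ± 0.200, SE, adjusted p = 0.996). *Meg3* stood at 346 and 428 CPM at 0 nM and 449 and 531 at 500 nM, with a log2 fold change of 0.38 ± 0.126 (SE, unadjusted p = 0.0036, adjusted p = 0.635). In *Xist*-positive precursors the *Meg3* values were 433 and 534 CPM at 0 nM and 449 and 531 at 500 nM, and the mean difference was 5.80 CPM in place of 103. RGCs were too few at 0 nM for a test.

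At P0 the question was whether the *Sstr2* genotype goes with the level of these genes in the intact retina. Retinas labelled knockout were compared with those labelled heterozygous, 2 against 2, and in neurogenic progenitors also with the single wild-type retina. *Cdkn1c* in neurogenic progenitors stood at 45.5 CPM in wild type, 68.7 and 53.6 in heterozygous and 32.6 and 62.5 in knockout retinas. The knockout values lay on both sides of wild type and of the lower heterozygous retina, and both lay below the higher heterozygous retina. Wild type lay below both heterozygous retinas. The log2 fold change of knockout over heterozygous was -0.35 ± 0.263 (SE, adjusted p = 0.989), and that of knockout over wild type 0.05 ± 0.332 (adjusted p = 0.994). The wild-type arm is 1 retina, so that test takes its spread from the other genotypes and assumes that the lone retina varies like them. In both comparisons 0 of 7 members passed, 0 had an unadjusted p under 0.05 and DESeq2 called 0, where 0.0111% of 8984 genes passed against heterozygous and 0.0334% against wild type. *Meg3* and *Nnat* are on the study's own list of genes chosen on *Sstr2*-positive neurogenic progenitors of these retinas, so their values here are no independent evidence: *Meg3* held 807 and 903 CPM in heterozygous and 822 and 1019 in knockout retinas, and *Nnat* 368 and 291 against 277 and 276. The study ordered *Sstr2*-positive neurogenic cells of explants and P0 retinas by expression (pseudotime) and named *Nnat* among the genes that fell along it. Cells with low Sstr2 activity, knockout cells among them, were enriched at its low end. Over all neurogenic progenitors here, *Nnat* was not higher in the knockout retinas. The 2 sets of cells differ, and the difference in direction was not tested.

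In P0 primary progenitors 0 of 7 members passed, where 0.00838% of 11939 genes did. Unadjusted p-values under 0.05 were found for 2 members by edgeR and for 2 by DESeq2, and DESeq2 called 0. *Cdkn1c* held 42.7 CPM in wild type, 47.0 and 75.4 in heterozygous and 54.7 and 54.8 in knockout retinas (log2 fold change -0.16 ± 0.196, SE, adjusted p = 0.997). *Meg3* stood at 73.5 and 64.6 CPM in heterozygous and at 27.1 and 40.2 in knockout retinas, which did not overlap, while the wild-type retina at 35.9 lay with the knockouts. Its log2 fold change was -1.04 ± 0.172 (SE, unadjusted p = 2.9e-04, adjusted p = 0.722), and -1.13 without heterozygous 2. A single cell of heterozygous 1 held 207 *Meg3* UMIs, and without the highest cell of each retina the values were 37.9 and 59.2 CPM against 23.1 and 36.1.

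The *Meg3* transcripts of P0 primary progenitors were concentrated: 82 of 2797 cells with 3 or more UMIs held 71.5% of them. These cells had a median of 13080 UMIs against 8684 in the rest and 663 CPM of photoreceptor precursor markers against 38.8. Per retina those markers in primary progenitors summed to 52.5 CPM in wild type, 70.3 and 90.7 in heterozygous and 65.7 and 48.1 in knockout retinas, and their part in the result was not tested. *Nnat* was 444 and 387 CPM in heterozygous, 352 and 329 in knockout and 327 in wild-type primary progenitors (log2 fold change -0.29 ± 0.0889, SE, unadjusted p = 0.0106, adjusted p = 0.997), so for this gene too wild type lay with the knockouts.

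In P0 amacrine cells *Cdkn1c* was 72.3 CPM in wild type, 148 and 119 in heterozygous and 276 and 134 in knockout retinas, and knockout 1 stood above the rest. The log2 fold change was 0.63 ± 0.231 (SE, unadjusted p = 0.0167, adjusted p = 0.998). It was 0.04 without knockout 1 and 1.06 without knockout 2, where knockout 1 stood alone for its genotype. In knockout 1 a single cell held 269 *Cdkn1c* UMIs. Without the highest cell of each retina the values were 121 and 109 CPM in heterozygous and 94.7 and 108 in knockout retinas, and the mean difference turned from 72.0 to -13.3 CPM. In these cells 0 of 7 members passed, where 0.0386% of 10373 genes did, with 1 at an unadjusted p under 0.05 and 0 by DESeq2. *Meg3* had a log2 fold change of -0.24 ± 0.147 (SE) in these cells, and -0.48 without knockout 1.

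In P0 photoreceptor precursors 0 of 7 members passed, where 0.0592% of 10129 genes did, with 2 at an unadjusted p under 0.05 and 0 by DESeq2. *Cdkn1c* was 98.7 CPM in wild type, 73.2 and 88.2 in heterozygous and 84.4 and 127 in knockout precursors, which overlapped (log2 fold change 0.42 ± 0.181, SE, unadjusted p = 0.0389, adjusted p = 0.699). Without knockout 2 its log2 fold change was 0.09. *Plagl1* was 98.0 and 67.5 CPM in heterozygous and 62.6 and 59.9 in knockout retinas (log2 fold change -0.43 ± 0.188, SE, unadjusted p = 0.0402, adjusted p = 0.706), and -0.13 without heterozygous 1. In RGCs, 85 cells over 5 retinas, 0 of 6 members passed, where 0.586% of 6994 genes did, with 0 unadjusted p-values under 0.05 from edgeR and 0 from DESeq2. *Cdkn1c* in RGCs was 93.0 CPM in wild type, 129 and 91.1 in heterozygous and 53.5 and 130 in knockout retinas (log2 fold change -0.40 ± 0.242, SE, adjusted p = 0.915, and 0.20 without knockout 1).

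At P14, when the retina is nearly mature, 1 member passed in 1 of 4 cell types. In bipolar cells *Nnat* stood at 243 and 264 CPM in heterozygous, 110 and 94.5 in knockout and 136 in wild-type retinas. The knockout retinas did not overlap the heterozygous ones and lay closer to the wild type. The log2 fold change of knockout over heterozygous was -1.29 ± 0.298 (SE, edgeR adjusted p = 0.0308), a 2.45-fold lower level, and this was 1 of 6 members tested, where 0.137% of 8787 genes passed. *Cdkn1c* was below the filter in bipolar cells.

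The call for *Nnat* was not stable. It was lost with DESeq2 (log2 fold change -1.31, adjusted p = 1.00, with 1 member at an unadjusted p under 0.05), without heterozygous 1 (-1.35, adjusted p = 0.417) and without heterozygous 2, the retina that stands apart in *Xist* (-1.25, adjusted p = 0.708). Without the 5% of cells with most UMIs the difference was -0.07 (adjusted p = 0.999). A few deep cells carried the transcript: 42 of 578 bipolar cells with 3 or more *Nnat* UMIs held 75.8% of them, with a median of 9454 UMIs against 3691 and 2126 CPM of bipolar markers against 7382. A *Nnat* UMI was found in 43 of 207 wild-type, 24 of 91 and 9 of 29 heterozygous, and 40 of 159 and 25 of 92 knockout bipolar cells, which gives no like gap. Without the highest cell of each retina the levels were 169 and 169 CPM in heterozygous and 101 and 82.0 in knockout retinas, and the mean difference of -152 CPM became -77.3.

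In the other P14 types *Cdkn1c* did not differ beyond the spread. Müller glia held 157 CPM in wild type, 175 and 202 in heterozygous and 224 and 190 in knockout retinas (log2 fold change 0.15 ± 0.226, SE, adjusted p = 1.00, and 0.19 without heterozygous 2). Here 0 of 7 members passed, where 0.102% of 8816 genes did, and 0 had an unadjusted p under 0.05 by either tool. *Meg3* passed only without the 5% of cells with most UMIs (log2 fold change 1.28, edgeR adjusted p = 0.0127). Over all glia *Meg3* stood at 264 and 169 CPM in heterozygous and 429 and 222 in knockout retinas. These values overlapped, with a log2 fold change of 0.49 ± 0.263 (SE). Rods held 66.7 CPM of *Cdkn1c* in wild type, 82.7 and 24.1 in heterozygous and 60.7 and 57.4 in knockout retinas (-0.06 ± 0.325, SE, adjusted p = 1.00). The rod value was -0.50 without heterozygous 2 (adjusted p = 1.00) and 1.25 without heterozygous 1 (adjusted p = 0.372). In rods 0 of 7 members passed, where 0.0106% of 9474 genes did, and 0 had an unadjusted p under 0.05 by either tool.

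Cones were few, with 11 to 34 cells a retina, and 0 of 5 members passed, where 0.0785% of 5093 genes did, with 2 at an unadjusted p under 0.05 and 0 by DESeq2. *Cdkn1c* in cones rested on 18 UMIs in wild type, 7 and 0 in heterozygous and 7 and 2 in knockout retinas (log2 fold change -0.22 ± 1.02, SE, adjusted p = 0.999, and -0.78 without heterozygous 2). *Meg3* in cones was 1842 and 3126 CPM in heterozygous and 766 and 2595 in knockout retinas (-0.56 ± 0.197, SE, unadjusted p = 0.0048, adjusted p = 0.757), which overlapped. Its log2 fold change was -0.92 without heterozygous 1 and turned to 0.06 without knockout 1. *Snrpn* in cones was 58.1 and 78.7 CPM against 140 and 102 (0.96 ± 0.376, SE, unadjusted p = 0.0111, adjusted p = 0.939). Without heterozygous 2 the log2 fold changes of *Meg3* and *Snrpn* were -0.19 and 1.10.

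**Figure D4:**
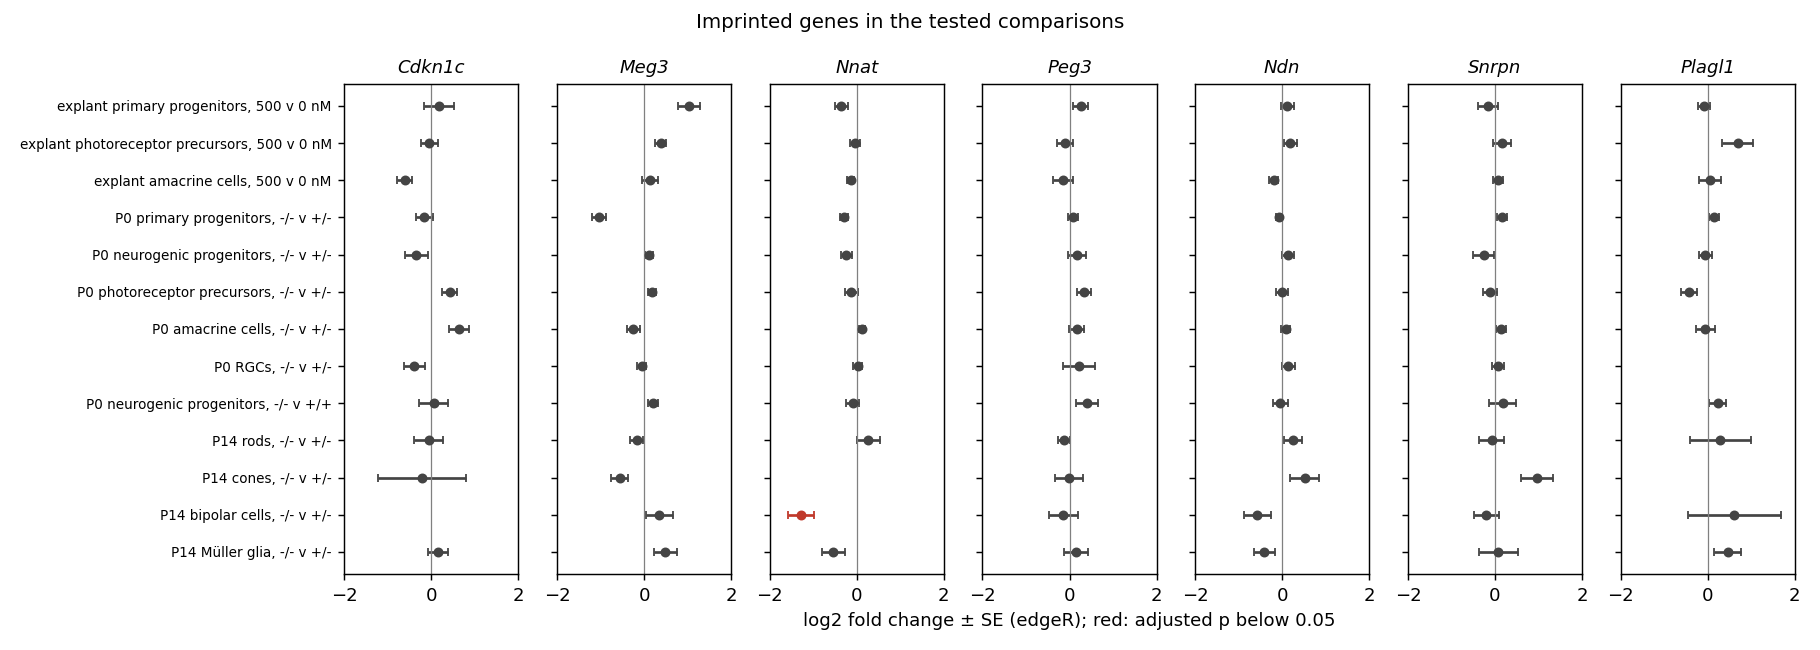
Log2 fold change (edgeR quasi-likelihood fit) with an SE derived from its F statistic for each member tested, 1 panel per gene, for 500 over 0 nM in explant cell types, for retinas labelled -/- over +/- at P0 and P14, and for -/- over +/+ in P0 neurogenic progenitors. The *Nnat* point of P14 bipolar cells, at -1.29, is the one past the adjusted threshold, in red.

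**Figure D5:**
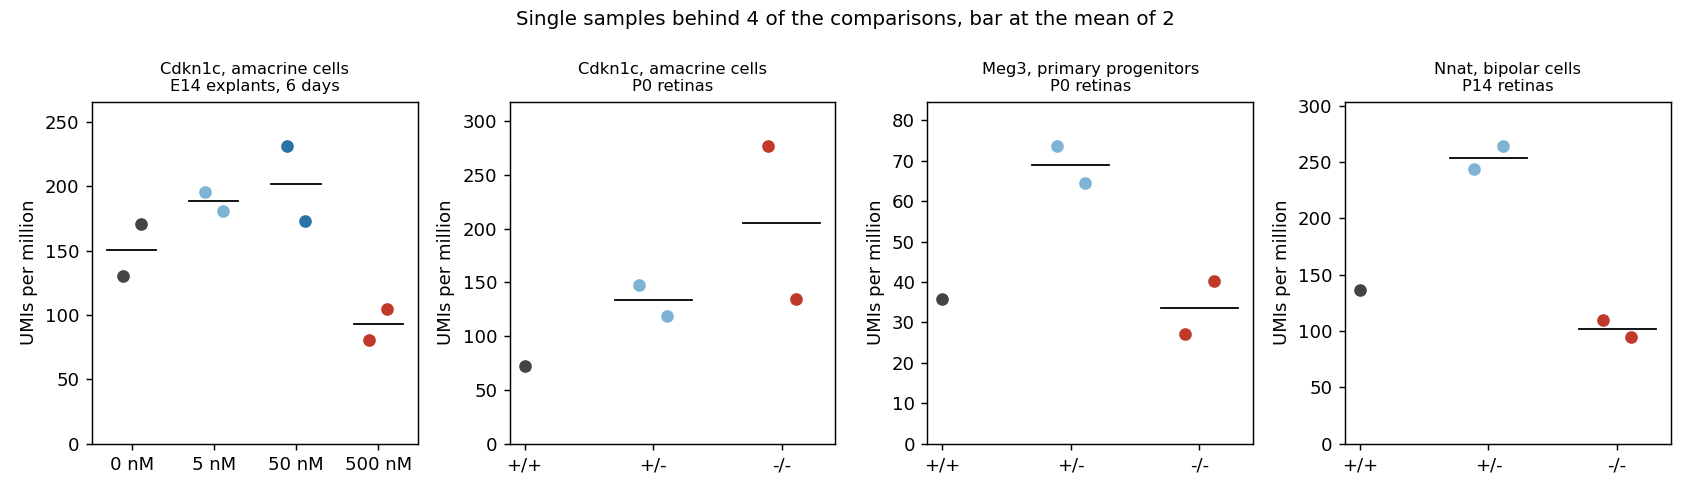
Level (CPM) in each sample of *Cdkn1c* in explant and P0 amacrine cells, *Meg3* in P0 primary progenitors and *Nnat* in P14 bipolar cells, by dose or labelled genotype, with bars at the mean of 2 samples. *Cdkn1c* in P0 amacrine cells shows knockout 1 at 276 CPM above the other 4 retinas at 72.3 to 148.

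Explants and P0 retinas have a similar nominal age, but library, culture and strain cannot be told apart between them, and no test was made. *Ndn* was higher in all 8 explants than in all 5 P0 retinas in primary progenitors, neurogenic progenitors, photoreceptor precursors and amacrine cells. *Ndn* was lower in the RGC-labelled cells of 7 explants than in those of the 5 P0 retinas. RGC markers were lower in these explant cells too, as given above. *Nnat* was higher in explants in both kinds of progenitor. *Meg3* was lower in explant neurogenic progenitors, photoreceptor precursors and amacrine cells, and *Cdkn1c* was lower in explant primary progenitors (14.0 to 36.8 against 42.7 to 75.4 CPM). Of 7 members, the ranges did not overlap for 3 in primary progenitors, 4 in neurogenic progenitors, 4 in photoreceptor precursors, 2 in amacrine cells and 3 in RGCs. Over all genes with a mean of at least 20 CPM the shares without overlap were 30.9%, 15.5%, 26.5%, 19.2% and 14.6% in the same order.

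Neurogenic progenitors were also split by at least 1 UMI of *Mki67* or *Top2a*, genes of cycling cells, before thinning. Cells with such a UMI are called *Mki67*-positive here. The members were then counted after each cell was thinned to 2000 UMIs (284 positive and 396 negative cells in explants, 351 and 318 at P0). The split itself went with depth at P0, where sample medians were 8508 to 9715 UMIs in positive and 5795 to 6270 in negative cells. In explants they were 4632 to 5218.5 and 3985 to 4706. At this depth none of the 14 comparisons of the share of cells with a member's UMI passed in exact sign permutation tests, 2-sided. There were 0 unadjusted p-values under 0.05, and the smallest adjusted p was 0.246. With cells thinned to 3000 UMIs none passed either. In explants the exact permutation p was then 0.023 for *Plagl1* and 0.031 for *Peg3*, both higher in positive cells, and 0.031 for *Ndn*, which was lower. The adjusted p of each was 0.125. The smallest p that the tests allow is 0.0078 with 8 explants and 0.0625 with 5 retinas, so at P0 no test could pass. In explants a lone member at that smallest p could not pass either after adjustment over the 14. Without thinning, *Peg3* in explants reached it (exact permutation p = 0.0078) with an adjusted p of 0.109. *Cdkn1c* was found in 2.82% of positive and 3.59% of negative cells in explants (exact permutation p = 0.719) and in 9.72 and 10.4% at P0 (exact permutation p = 1.00). *Peg3* was higher in *Mki67*-positive cells of 5 of 5 P0 retinas (13.4 against 6.89%), and *Snrpn* lower in those of 7 of 8 explants (5.59 against 10.7%, exact permutation p = 0.0547).

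Among 51 other imprinted genes, 16 to 32 were tested in each comparison, and 0 passed in all 14, with 0 to 3 at an unadjusted p under 0.05. *Gnas*, *Kcnq1ot1* and *Ube3a* were the most abundant in explants and at P0. *Kcnq1ot1*, the paternal non-coding RNA of the cluster that holds *Cdkn1c*, was highest in photoreceptor precursors (570 to 829 CPM in explants and 321 to 437 at P0) and in P14 bipolar cells (860 to 1313). *Cdkn1c* itself was at 75.6 to 118 CPM in those precursors in explants, at 73.2 to 127 in those at P0 and at 3.36 to 16.2 in those bipolar cells. A relation between the 2 genes was not tested.

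Of 10 cyclin-dependent kinase inhibitors and D cyclins, 1 passed. *Ccnd1*, the D cyclin of retinal progenitors, was higher at 500 than at 0 nM in explant photoreceptor precursors (88.0 and 96.1 CPM at 0 nM, 114 and 296 at 500 nM, log2 fold change 1.12 ± 0.215, SE, edgeR adjusted p = 0.00322) and amacrine cells (41.1 and 60.2 against 62.9 and 133, 1.08 ± 0.228, SE, edgeR adjusted p = 0.0082). These were 1 of 4 and 1 of 3 list genes tested, where 0.0941% and 0.269% of all genes passed. Both calls were lost without 500 nM 2 (0.34 and 0.45), without 0 nM 1 and with DESeq2. *Ccnd1* stood at 2098 to 2489 CPM in primary progenitors, which made up 41.6% of the cells of 500 nM 2 and 18.1 and 25.4% of those at 0 nM. The other 6 primary progenitor markers summed to 205 CPM in the precursors of 500 nM 2 (118 to 165 in the other explants) and to 152 CPM in its amacrine cells (126 to 199), and their part in the result was not tested. Of 12 genes of the IGF axis, 1 passed: *Igf1* in P0 RGCs, with 7 UMIs in wild type, 22 and 0 in heterozygous and 147 and 142 in knockout retinas (3.24 ± 0.268, SE, edgeR adjusted p = 6.5e-30, and adjusted p = 1.00 with DESeq2). It was 1 of 7 list genes tested there, where 0.586% of all genes passed. *Cdkn1b*, the kinase inhibitor related to *Cdkn1c*, was highest at P14 in Müller glia at 256 to 386 CPM, as *Cdkn1c* was. The other libraries gave no such match. By mean CPM, *Cdkn1b* led in primary progenitors at P0 (143 to 168) and in photoreceptor precursors in explants (125 to 188). The *Cdkn1c* median was highest in amacrine cells in both.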

How the data were processed

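MULTI-seq single-cell RNA libraries (10x, 3' chemistry) were made from explants and from P0 and P14 retinas. The authors' files held deposited UMI counts per gene and cell, as whole numbers from Cell Ranger (version 3.1.0, mm10, per the labels' processing notes), and values deposited as a natural log of corrected counts from the Seurat 3 SCT workflow, which served only as an alternative. Sample and cell type labels are the authors' (deMULTIplex, clusters named by markers). Whether counting used strand was not given in the sources used here. No doublet caller was run here.

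UMIs were added up over the cells of each type in a sample (at least 10 cells) and fitted with edgeR 4.0.16 in R 4.3.3, with all groups of a library in a single fit and an adjusted p under 0.05 as the threshold. CPM is per 1000000 UMIs of that cell type in a sample. The SE beside an edgeR log2 fold change was derived from the test, as its absolute value over the square root of the F statistic. Alternatives were DESeq2 1.42.0 and its size factors, no low-count filter, no cells in the top 5% of UMIs, leaving out each sample, *Xist*-positive cells and, added after seeing the data, leaving out single cells. Precision is limited by UMIs, and values at or under 3 UMIs are near the floor. Scripts were tested on simulated data. Members, lists and tests were chosen with earlier results of these data known. *Cdkn1c* differences are printed for every comparison, others at an unadjusted p under 0.05, list genes where they passed or were among the 3 most abundant.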

Additional observations from a re-analysis of the deposited data

Results flagged for a closer look

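Some members had log2 fold changes of opposite sign in different cell types of 1 library, where every sample of the first group lay on 1 side of the second in each type. These differences between types were not tested. With 2 samples in each group, such an order can arise without any difference between the groups. The share of all genes that show it was not computed. Some of the values below were smaller than their SE, such as *Peg3* in explant amacrine cells (SE 0.229) and *Ndn* in P0 neurogenic progenitors (SE 0.140). At 500 over 0 nM, *Peg3* was -0.16 in explant amacrine cells and 0.26 in primary progenitors, and *Ndn* was -0.20 in amacrine cells and 0.18 in photoreceptor precursors. For labelled knockout over heterozygous at P0, *Ndn* was 0.14 in neurogenic and -0.078 in primary progenitors. At P14 *Nnat* was -0.54 in Müller glia and -1.29 in bipolar cells but 0.27 in rods. *Ndn* at P14 was -0.41 in Müller glia and -0.57 in bipolar cells but 0.51 in cones, and *Snrpn* was -0.19 in bipolar cells and 0.96 in cones. Without heterozygous 2, the P14 retina that stands apart in *Xist*, these P14 values were -0.54, -1.25 and 0.39 for *Nnat*, -0.47, -0.83 and 0.54 for *Ndn*, and -0.22 and 1.10 for *Snrpn*, in the same order. With all retinas, the *Nnat* difference in bipolar cells was the one that passed its own test.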

How the results depend on the processing

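No paired analysis of doses or genotypes was possible because the labels give no replicate numbers that the groups share. In explant primary progenitors the count of members called, 0, became 1 with DESeq2 size factors and 1 with no filter, and ranged from 0 to 2 when single explants were left out. In explant neurogenic progenitors the mean *Cdkn1c* difference became -40.4 CPM without the highest cell of each explant. With no filter 1 member (*Cdkn1c*) was called in amacrine cells of explants and 1 of P0 retinas. Leaving out a retina gave 0 to 1 calls in P0 primary progenitors, P0 amacrine cells, P14 cones and P14 bipolar cells. The 1 call in P14 bipolar cells became 0 with DESeq2 and 0 without the 5% of cells with most UMIs, which gave 1 in Müller glia. Of the recomputed counts of members called, 89 stayed the same and 14 moved.

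The sign of the *Cdkn1c* log2 fold change turned in explant primary progenitors (-0.76 without 500 nM 2, range up to 0.57), explant photoreceptor precursors (0.0021 without the 5% deepest cells, 0.08 without 0 nM 2, 0.16 without 500 nM 1, range from -0.28), P0 primary progenitors (0.21 without heterozygous 2), P0 neurogenic progenitors (0.038 without knockout 1, range from -0.88, and -0.47 against wild type without knockout 2, range up to 0.44), P0 RGCs (0.20 without knockout 1, range from -1.08), P14 rods (0.11 with DESeq2, 1.25 without heterozygous 1, range from -0.50) and P14 cones (5.18 without heterozygous 1, 0.08 without knockout 2, range from -0.78). *Meg3* in cones turned to 0.055 without knockout 1, range from -1.68. The *Cdkn1c* difference in P0 amacrine cells turned to -13.3 CPM without the highest cells. With SCT values *Peg3* in explant photoreceptor precursors over primary progenitors turned to -0.15 and *Cdkn1c* in P0 amacrine cells over RGCs to -0.013 (log2). In the *Mki67* split, at 3000 UMIs the differences turned to 1.77 (*Cdkn1c*, explants), 4.60 (*Nnat*, explants) and 3.41 (*Plagl1*, P0) percentage points. With no thinning they turned to 2.40 and 1.48 (*Cdkn1c* and *Nnat*, explants) and to 4.52, 2.00, 0.35 and 11.7 (*Cdkn1c*, *Nnat*, *Ndn* and *Plagl1*, P0). Except where the construction of a setting shows it, the cause was not tested. Depth limits *Igf2*, *Dlk1* and *Cdkn1c* in cones and explant RGCs most.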
